A study of Homo sapiens with 6 samples.

Results

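The arms of chromosomes 4, 13 and 18, among the human chromosomes with the fewest genes for their length, were examined for trimethylation of histone H3 at lysine 9 (H3K9me3) away from telomeres and centromeres. An H3K9me3 peak belonged to these arms when its midpoint lay more than 1 Mb from the chromosome ends and outside fixed windows. The windows were 9.1 to 9.5 Mb and 48.5 to 52.5 Mb on chromosome 4, 0 to 19.5 Mb on chromosome 13 and 14.5 to 21.5 Mb on chromosome 18. The arms measured 349 Mb and comprised 4p, 4q, 13q, 18p and 18q. They held 1070 of the 23653 peaks of the control list, 288 of 14715 peaks of the guide 1 list and 128 of 12190 peaks of the guide 2 list.

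The cells were BJ, an established line of human skin fibroblasts, and every group, the control included, carried CRISPR interference, which silences a chosen gene by means of a repressor led there by a guide RNA. Cells received a control guide, PURPL guide 1 or PURPL guide 2, and PURPL is a long non-coding RNA gene that p53 induces. From each of the 3 cell lines 1 library of H3K9me3 and 1 of input chromatin were made, 6 samples together, and the labels do not say whether a line was a clone or a pool. Peak lists hold no transcript level, so neither the fibroblast identity nor the fall of PURPL could be checked here. As each cell line has a single H3K9me3 library, differences between the lists have no replicate check, the depth is unknown, and 95% Wilson intervals cover counting error only.

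H3K9me3 is written by dedicated lysine methyltransferases and read by heterochromatin proteins, and it is a mark of compacted, repressed chromatin. It is densest over the repeats around centromeres, and on chromosome arms it lies over silenced transposable elements and over clusters of zinc finger genes. Chromosomes 4, 13 and 18 are known for long stretches with few genes, which are often late replicating and attached to the nuclear lamina. The labels name the comparison of PURPL knockdown with control cells as the purpose of the libraries.

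Sequences upstream of gene starts were printed for the arm gene densest in H3K9me3 among the named genes and for the single gene start under a peak. ZNF397, a zinc finger transcription factor gene of 18q, starts on the plus strand, and LOC105370152, a long non-coding RNA gene of 13q, starts on the minus strand. Each sequence is the 250 bases before the start, 5′ to 3′ on the gene's strand, from RefSeq for GRCh38.p14, with each CG dinucleotide in capitals.
ZNF397, chr18:35240784-35241033: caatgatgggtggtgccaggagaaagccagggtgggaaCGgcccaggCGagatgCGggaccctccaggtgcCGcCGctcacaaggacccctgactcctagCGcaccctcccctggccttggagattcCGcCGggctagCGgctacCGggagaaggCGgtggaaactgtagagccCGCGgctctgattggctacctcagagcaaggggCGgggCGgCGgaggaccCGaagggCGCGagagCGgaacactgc
LOC105370152, chr13:31814731-31814980: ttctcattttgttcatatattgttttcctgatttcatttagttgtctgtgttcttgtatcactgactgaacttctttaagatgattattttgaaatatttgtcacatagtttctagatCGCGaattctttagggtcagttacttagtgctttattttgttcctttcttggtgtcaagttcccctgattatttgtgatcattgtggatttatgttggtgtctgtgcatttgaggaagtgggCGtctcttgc
The ZNF397 sequence holds 20 CG dinucleotides and has 68% G and C, where the median over the same stretch at 1683 listed starts of coding genes of the arms was 17 CG and 60.8%. The LOC105370152 sequence holds 3 CG and has 34.8% G and C, where the median over 1447 listed starts of long non-coding genes was 3 CG and 44%. A control peak of 911 bp with a score of 14 (chr13:31814684-31815594) covered all 250 bases upstream of LOC105370152. No peak of any list covered the 250 bases upstream of ZNF397, although the gene body behind them was among the most densely covered of the arms.

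All 5 arms had fewer peaks and less covered length in the guide lists than in the control list. The control list had 1070 peaks covering 795 kb, the guide 1 list 288 peaks covering 169 kb and the guide 2 list 128 peaks covering 67.7 kb. Peak density was 3.07 per Mb in the control, 0.825 per Mb with guide 1 and 0.367 per Mb with guide 2. The number of guide 1 peaks was thus 26.9% of the control number and their length 21.2% of the control length, and the guide 2 values were 12.0% and 8.53%. These ratios moved with the size of the lists. When each list was limited to its 11721 highest-scoring peaks, the arms held 224, 174 and 128 peaks, so that guide 1 stood at 77.7% of the control number and 56.1% of its length, and guide 2 at 57.1% and 37.4%.

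Each arm showed the same order of control, guide 1 and guide 2. On 4p the lists had 127, 33 and 21 peaks, and on 4q they had 462, 111 and 51. On 13q the numbers were 265, 82 and 33. The short arm 18p had 57, 20 and 3 peaks and the long arm 18q had 159, 42 and 20. Control density ranged from 2.70 per Mb on 4p to 4.22 per Mb on 18p. The length left with guide 1 ranged from 17.6% of the control on 4q to 26.6% on 18p. With guide 2 it ranged from 2.73% on 18p, where that list has 3 peaks, to 12.99% on 18q.

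The rule leaves out sequence near centromeres and chromosome ends, so a contrast across the edges of the chosen intervals is partly built into it. Arm peaks within 1 Mb of an edge numbered 27 in the control, 13 in the guide 1 and 6 in the guide 2 list, with median widths of 693, 523 and 768 bp. Peaks of the same chromosomes within 1 Mb on the other side of an edge, which are not part of the arms, numbered 297, 232 and 206, with medians of 1053, 852 and 908.5 bp. Median scores were 15, 18 and 21 on the arm side and 21, 22 and 20 on the other side.

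**Figure D1:**
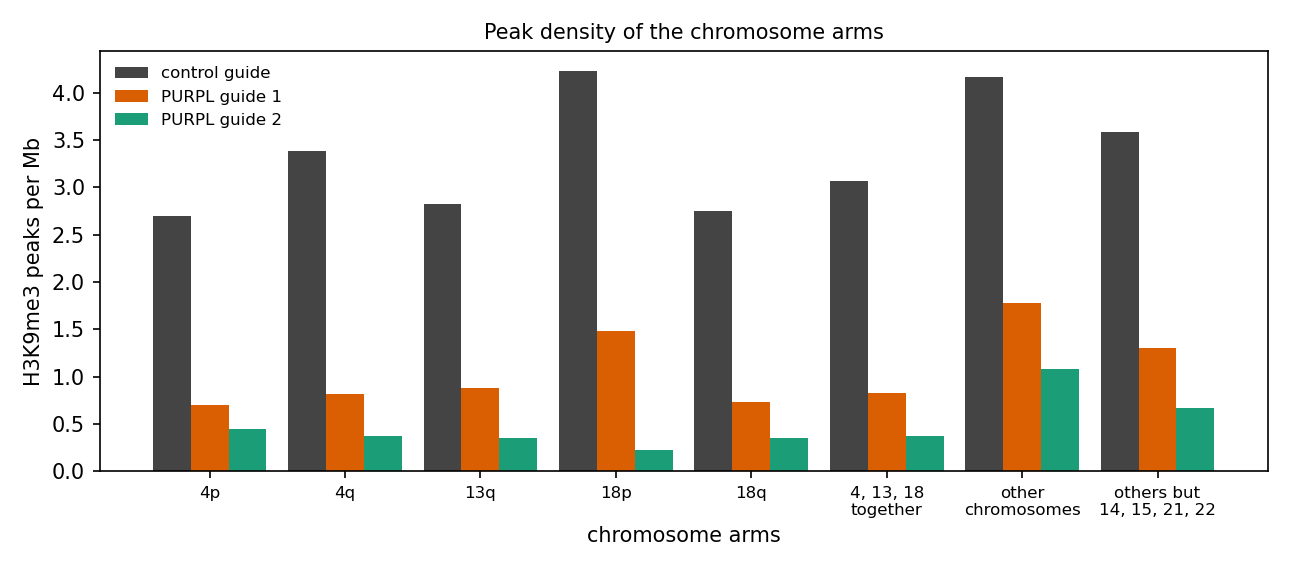
Bars give H3K9me3 peaks per Mb (vertical axis, from 0) in the control, PURPL guide 1 and PURPL guide 2 lists, 1 library each, for the 5 arms of chromosomes 4, 13 and 18, for these arms together, for the arms of the other chromosomes and for the others without chromosomes 14, 15, 21 and 22. Each of the 5 arms has its highest bar in the control and its lowest with guide 2, and the arms together stand at 3.07, 0.825 and 0.367 peaks per Mb.

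The arms of the other chromosomes had 10119, 4314 and 2632 peaks, or 4.16, 1.77 and 1.08 per Mb, leaving 42.6% of the control number with guide 1 and 26.0% with guide 2. Without chromosomes 14, 15, 21 and 22, a comparison chosen after seeing the data, the other arms stood at 36.2% and 18.6% of the control number. Over the 20 other chromosomes taken singly, the guide 1 share of the control number ran from 23.7% on the X to 77.4% on chromosome 19, and 2 chromosomes lay below the arms of 4, 13 and 18. For guide 2 the range was 11.3% on chromosome 12 to 64.2% on chromosome 22, with 1 chromosome below. At equal list sizes, also added after seeing the data, the number left on the other arms was 94.2% and 77.7% for guides 1 and 2, above the 77.7% and 57.1% of the arms of 4, 13 and 18. The length left was then 59.7% and 38.0% on the other arms against 56.1% and 37.4%. Without chromosomes 14, 15, 21 and 22 the other arms kept 93.3% and 71.5% of the number and 55.6% and 29.4% of the length, the last of these below the arms of 4, 13 and 18. None of these differences has a replicate test.

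Widths and ranks of the arm peaks lay within the range of the other chromosomes taken singly. The median width in the control, guide 1 and guide 2 lists was 580, 405.5 and 333 bp, against 710, 639 and 593.5 bp on the other arms and 677, 603 and 505 bp there without chromosomes 14, 15, 21 and 22. Among the other chromosomes taken singly, the lowest medians were 563 bp for the control and 375 bp for guide 1, both on the X, and 287.5 bp for guide 2 on chromosome 12. Peaks of at least 2000 bp numbered 39, 4 and 2, and the widest measured 6460, 3497 and 2483 bp. Scores were assigned to peaks by the authors, and because their scale is unnamed they served here to rank and filter peaks. The median arm score was 16, 16 and 18, at percentiles 25.6, 20.0 and 28.3 of the respective lists, and the median peak on the arms of chromosome 12 stood at the same percentiles. The highest arm scores were 113, 81 and 58.

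**Figure D2:**
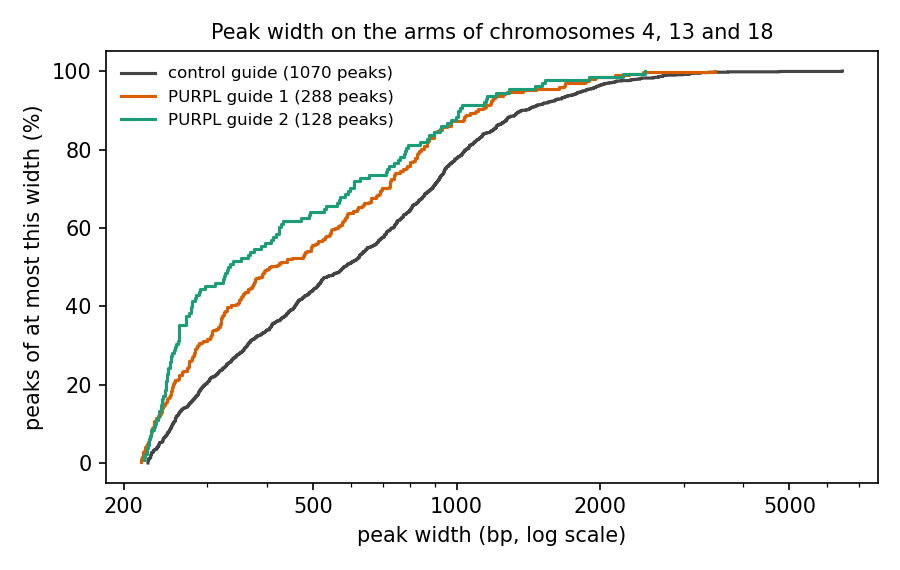
The curves give the share of arm peaks (vertical axis, percent) with at most the width on the horizontal axis (bp, log scale) for the control (1070 peaks), guide 1 (288 peaks) and guide 2 (128 peaks) lists. The control curve lies to the right of the guide curves over most of the range, with medians of 580, 405.5 and 333 bp.

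Peaks also stood further apart in the guide lists. The median distance to the nearest peak of the same list was 57.3, 250.3 and 555 kb for the control, guide 1 and guide 2. Peaks with no neighbour within 100 kb made up 35.3%, 72.6% and 87.5% of the lists. The longest peak-free gaps were 8.47, 12.0 and 14.8 Mb, again in the order control, guide 1, guide 2. On the other arms the nearest peak was closer in the guide lists than in the control, at a median of 22.3, 8.89 and 5.24 kb. These medians were not taken without chromosomes 14, 15, 21 and 22. Guide 2 density was 11.4 peaks per Mb on chromosome 21 and 10.6 on chromosome 22. On the other arms without those chromosomes it was 0.666 per Mb.

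Few control peaks of the arms had a guide peak at the same place. Sharing needed an overlap of at least 1 bp. Guide 1 peaks overlapped 111 of 1070 control peaks (10.4%, Wilson 8.69 to 12.3%), where the share over all control peaks of chromosomes 1 to 22 and X was 42.8%. Guide 2 peaks overlapped 45 (4.21%, 3.16 to 5.58%), with 36.2% over those chromosomes. Neither guide had a peak at 934 control peaks (87.3%, 85.2 to 89.2%), against 50.1% over those chromosomes and 72.2% on the other arms. Both guides overlapped 20 control peaks (1.87%), against 29.0% over those chromosomes and 11.4% on the other arms. The shares over whole chromosomes include peaks near centromeres and ends. Across the score classes given below, guide 1 overlapped 8.07% to 45.2% of control peaks on the other arms, and guide 2 overlapped 3.14% to 35.1%. On the arms of 4, 13 and 18 these ranges were 6.09% to 14.7% and 0.870% to 7.59%. The overlap shares depend on the number of guide peaks, which was 26.9% and 12.0% of the control number on the arms. Over chromosomes 1 to 22 and X it was 62.3% and 51.8%. The part of peak number in these contrasts was not tested. The overlap shares also depend on how overlap is defined. Counting a guide peak within 5000 bp gave 16.9% for guide 1 and 8.22% for guide 2, and requiring 50% of the control peak to be covered gave 4.11% and 1.31%.

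Read from the guide side, most arm peaks of either guide were not control peaks. Of the 288 guide 1 peaks, 115 (39.9%) lay on a control peak and 173 (60.1%, 54.3 to 65.6%) did not, against 20.8% without a control peak over chromosomes 1 to 22 and X. Of the 128 guide 2 peaks, 45 (35.2%) lay on a control peak and 83 (64.8%, 56.2 to 72.6%) did not, against 17.1%. On the other arms 36.1% of guide 1 peaks and 29.9% of guide 2 peaks had no control peak. With the wider distance of 5000 bp, 55.6% of guide 1 peaks and 55.5% of guide 2 peaks had a control peak. The lists limited to equal size gave 11.5% and 13.3% on a control peak. The control list then holds 224 arm peaks and the guide 1 list 174, and the part of list size was not tested. Guide 1 peaks without a control peak were narrower than those on one, with medians of 351 and 568 bp, and for guide 2 the medians were 290 and 532 bp.

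The arm peaks of the guide lists were also compared with each other. The overlap took in 30 guide 1 peaks (10.4% of that list) and 29 guide 2 peaks (22.7% of that list). The same shares were 30.5% and 53.4% on the other arms, 17.96% and 39.3% there without chromosomes 14, 15, 21 and 22, and 55.0% and 68.6% over chromosomes 1 to 22 and X. Peaks found in 1 guide list alone numbered 164 of 288 (56.9%) for guide 1 and 73 of 128 (57.0%) for guide 2. They made up 33.9% and 26.1% on the other arms, 40.9% and 37.6% without those 4 chromosomes, and 17.4% and 12.8% over chromosomes 1 to 22 and X. On the arms 8 regions were covered by both guides and not by the control, and 5 of these had no control peak within 5000 bp.

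Wider and higher-scoring control peaks were overlapped more often. Guide 1 overlapped 4.88% of 471 control peaks under 500 bp, 8.31% of 361 peaks of 500 to under 1000 bp and 20.1% of 199 peaks of 1000 to under 2000 bp. Of the 39 control peaks of at least 2000 bp it overlapped 46.2% (31.6 to 61.4%), and guide 2 overlapped 30.8% (18.6 to 46.4%). The widest class stood at 74.1% and 55.8% on the other arms. Control peaks shared by all 3 lists had a median width of 2008.5 bp, and those shared with neither guide 521 bp. A wide peak offers more bases for an overlap of 1 bp, and the part of width in these shares was not tested.

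By the authors' score, the guide 1 share went from 6.09% of the 345 control peaks scoring 10 to 14 to 14.7% (10.7 to 20.0%) of the 224 scoring 21 or more. The guide 2 share went from 0.870% to 7.59% (4.79 to 11.8%). On the other arms the top class was overlapped at 45.2% by guide 1 and 35.1% by guide 2, although its scores reach higher there. Within the score range 21 to 30, held by 193 arm peaks, the shares were 11.9% and 5.70% on the arms of 4, 13 and 18. In the same range they were 31.1% and 20.0% on the other arms, and 29.1% and 16.6% without chromosomes 14, 15, 21 and 22. In the range 21 to 30 the arms thus had lower shares, with 1 library behind each list. Control peaks of that range were narrower on the arms, at a median of 599 bp against 835 bp on the other arms. The part of width was not tested. At scores of 10 to 14 the shares on the other arms were 8.07% and 3.14%, closer to those of the arms. At scores of 15 to 16 the shares were 10.4% and 4.52% on the arms, against 12.6% and 5.94% on the other arms.

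**Figure D3:**
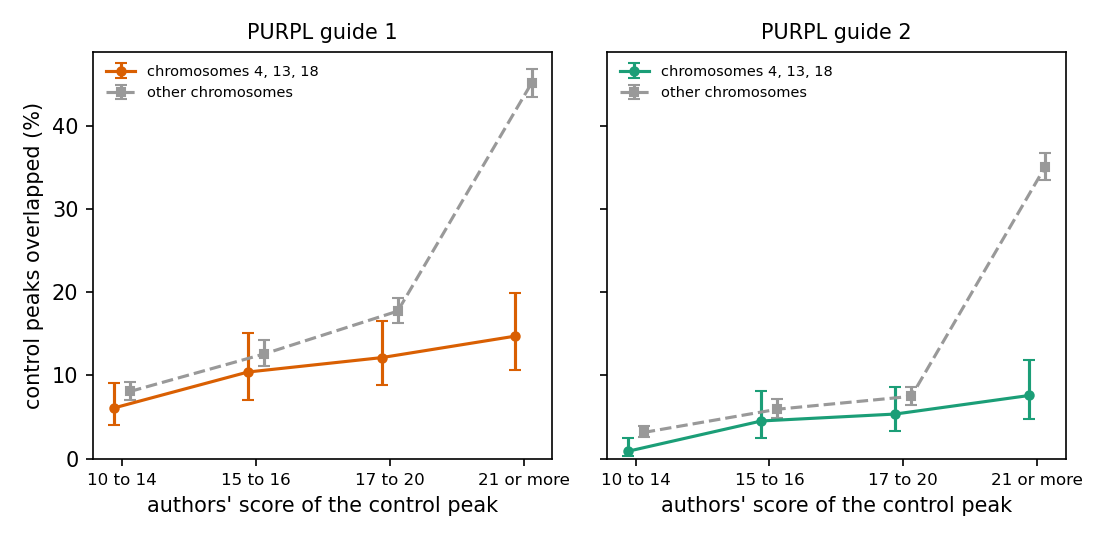
Points give the share of control peaks overlapped by at least 1 bp of a guide peak (vertical axis, percent, from 0) in 4 classes of the control peak's score (horizontal axis), with 95% Wilson intervals for counting error, for guide 1 at left and guide 2 at right. Coloured circles are the arms of chromosomes 4, 13 and 18 and grey squares the other arms, and in the class of 21 or more they stand at 14.7% and 45.2% for guide 1 and at 7.59% and 35.1% for guide 2.

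Peaks of the arms were spread thinly, and windows with no counted coding gene held the fewest. Of 349 windows of 1 Mb, 274 (78.5%) had a control peak, 159 (45.6%) a guide 1 peak and 94 (26.9%) a guide 2 peak. Windows with at least 5 peaks numbered 95, 10 and 0 in the control, guide 1 and guide 2 lists. Protein-coding genes were counted per window, and a window with a count of 0 can still hold part of a long gene. The window chr13:34000001-35000000 counted 0 but holds part of NBEA, with 12 control peaks. The 74 windows with no counted protein-coding gene had 1.51 control peaks per Mb, the 184 windows with 1 to 5 such genes 3.38 and the 91 windows with 6 or more genes 3.74. The guide 1 densities were 0.270, 0.897 and 1.14 per Mb and the guide 2 densities 0.203, 0.386 and 0.449. Control windows with no counted coding gene were sparser on each chromosome, at 1.36 peaks per Mb on chromosome 4, 1.81 on 13 and 1.55 on 18. On the other arms such windows were the densest, at 6.67 per Mb, but stood at 2.00 per Mb without chromosomes 14, 15, 21 and 22.

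**Figure D4:**
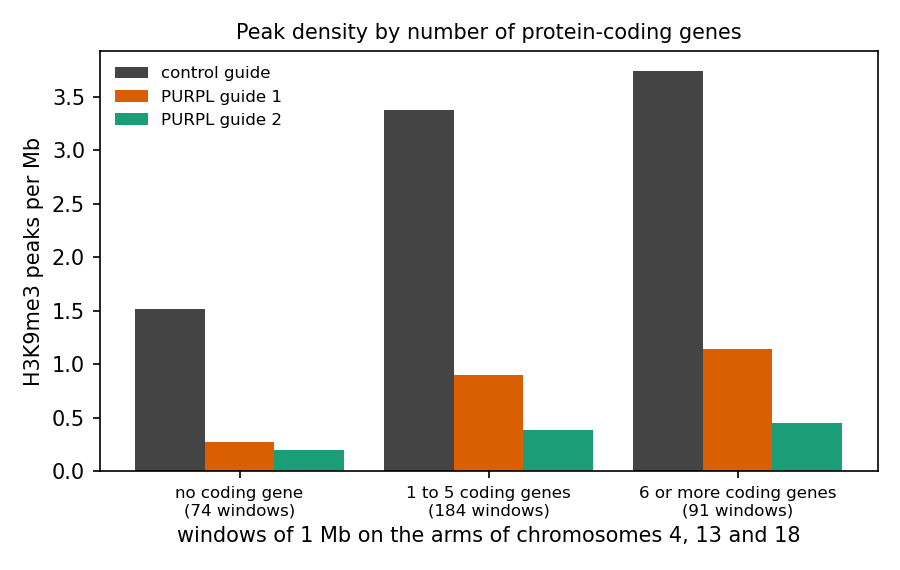
Bars give H3K9me3 peaks per Mb (vertical axis, from 0) in windows of 1 Mb of the arms of chromosomes 4, 13 and 18, grouped by the number of protein-coding genes counted in the window, for the control, guide 1 and guide 2 lists. Windows with no counted coding gene, which can still hold part of a long gene, are lowest in each list, at 1.51, 0.270 and 0.203 peaks per Mb.

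The longest intervals between annotated genes held 0 to 3 control peaks and no guide peak. On chromosome 4 this interval (chr4:178817381-180095497, 1278 kb) held 1 control peak of 260 bp and no guide peak. On chromosome 13 (chr13:55182737-55996488) it held no peak in any list, and on chromosome 18 (chr18:40472885-41406707) it held 3 control peaks and no guide peak. Across 35 windows of 10 Mb, control density ran from 0.7 to 6 peaks per Mb. Its Spearman correlation with coding genes per Mb was 0.473 for the control, 0.620 for guide 1 and 0.310 for guide 2, a description over windows that share 1 library per list. Over the 349 windows of 1 Mb the same correlations were weaker, at 0.311, 0.282 and 0.134.

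Density also varied with distance from the excluded centromere-side windows, without a steady trend. In the control it was 3.56 peaks per Mb in the first 5 Mb, 1.72 at 5 to 10 Mb and 4.10 at 20 to 30 Mb. The guide 1 density ranged from 0.661 to 1.10 and the guide 2 density from 0.2 to 0.7 per Mb over the 8 distance classes.

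The share of peaks in bodies of protein-coding genes was set beside the share of sequence in them. Protein-coding genes made up 36.9% of arm bases and held the midpoint of 427 control peaks (39.9%, 37.0 to 42.9%), 133 guide 1 peaks (46.2%, 40.5 to 52.0%) and 59 guide 2 peaks (46.1%, 37.7 to 54.7%). In the control the arms differed in direction, with 51.2% of peaks against 38.4% of bases on 4p and 31.4% against 36.6% on 18q. On 18p, too, the share of control peaks (40.4%) was below that of bases (48.4%). Without chromosome 4 the control share was 36.8% and the guide 2 share 37.5%, beside 36.4% of bases. Control peaks in coding genes were overlapped by guide 1 at 13.8% (10.9 to 17.4%) and by guide 2 at 5.85%, and those outside at 8.09% (6.22 to 10.5%) and 3.11%. Whether a peak lay in an exon or an intron was not analysed here.

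Gene starts were almost free of peaks. A control peak overlapped 1 of 3130 promoter windows of the arms, which run from 250 bases before to 50 bases after the start, and no guide peak overlapped one. Over chromosomes 1 to 22 and X, without chromosome 8, the shares were 0.140%, 0.0772% and 0.0372% in the control, guide 1 and guide 2 lists. The 1 window was that of LOC105370152, whose nearest guide 1 and guide 2 peaks were 499 and 314 kb away. None of the 1683 coding windows was covered in any list. The median distance from a control peak to a coding start was 105 kb, against 144 kb for points placed every 10 kb along the arms.

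A peak covered part of 244 of the 1269 protein-coding genes lying wholly inside the arms in the control list (19.2%), 102 in the guide 1 list (8.04%) and 55 in the guide 2 list (4.33%). Over chromosomes 1 to 22 and X the shares were 13.1%, 6.55% and 3.73%. Without chromosome 4 the numbers were 108, 48 and 20. Distinct gene bases under peaks came to 340186, 80643 and 30233 bp, or 346735, 85611 and 31193 bp when a base shared by overlapping genes counts once for each gene. Of the 244 control-marked genes, 224 were shorter covered in both guide lists (91.8%, against 92.6% over those chromosomes), and 137 were uncovered in both (56.1%, against 52.5%). Marked genes were long, with a median of 139 kb against 36.5 kb for unmarked genes, and most of them (150 of 244) had a single control peak. Over chromosomes 1 to 22 and X these medians were 107 kb and 19.7 kb, so the genes there were shorter. The part of gene length in the higher marked shares of the arms was not tested. Genes marked in all 3 lists numbered 19 (7.79%), against 16.4% of the marked genes on the other arms.

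The longest control coverage was in INPP4B on 4q, a phosphatase of inositol lipids, with 14135 bp under 12 control peaks, 708 bp with guide 1 and 1739 bp with guide 2. NBEA on 13q, a neuronal protein of membrane traffic, had 8284, 1500 and 0 bp. PCCA on 13q, a subunit of the mitochondrial enzyme that carboxylates propionyl-CoA, had 7494, 3728 and 566 bp. The genes of this paragraph were named for their long control coverage, so a longer control value in them is largely fixed by the choice. Values are given in the order control, guide 1 and guide 2 here and for the genes that follow. ANTXR2 is an anthrax toxin receptor that binds matrix proteins, and had 5662, 349 and 352 bp. SCLT1, a protein of the centriole's distal appendages, had 5538, 322 and 0 bp. RAP1GDS1, an exchange factor for small GTPases, had 5125, 568 and 0 bp. DYM, a Golgi protein gene of 18q, had 5283, 1453 and 0 bp, but in lists of equal size guide 1 exceeded the control by 294 bp.

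Genes covered in the control alone were headed by AFG2A on 4q, an ATPase of ribosome maturation, with 7707 bp under 5 control peaks and 0 in both guide lists. GPC6, a cell-surface glypican of 13q, had 3270 bp under 6 control peaks. NELFA, a subunit of the negative elongation factor on 4p, had 2785 bp, or 10.6% of its 26.3 kb. DNAJB14, a co-chaperone, had 2399 bp, and SPMIP2 had 2395 bp. Marking by both guide lists was seen for 3 of the 1025 arm genes without a control peak (0.293%), against 0.138% over chromosomes 1 to 22 and X. They were PDE5A, the phosphodiesterase that degrades cyclic GMP, with 1251 and 491 bp, N4BP2 with 354 and 327 bp, and ELF1, an ETS transcription factor, with 280 and 311 bp.

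**Figure D5:**
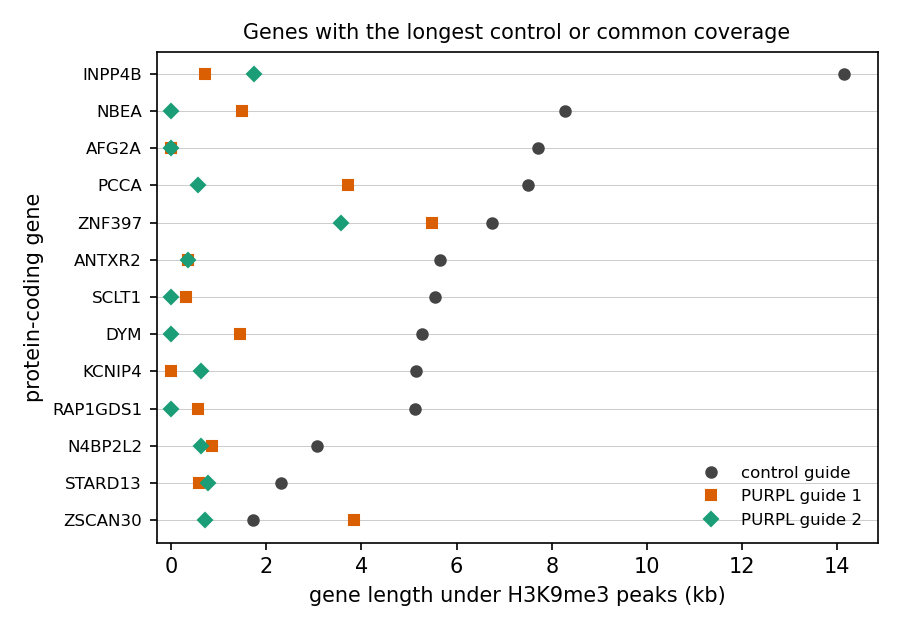
Points give the length of each named protein-coding gene under H3K9me3 peaks (horizontal axis, kb) in the control (circles), guide 1 (squares) and guide 2 (diamonds) lists, for the 10 genes of longest control coverage and the 5 of longest coverage shared by the lists. INPP4B has the longest control coverage at 14135 bp, and ZSCAN30 is the 1 gene shown whose guide 1 point lies to the right of its control point.

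Coverage common to all 3 lists was longest in ZNF397, the zinc finger gene whose upstream sequence is printed above. It had 6747, 5486 and 3578 bp under control, guide 1 and guide 2 peaks, or 37.1%, 30.2% and 19.7% of its 18.2 kb. The direction was not stable for this gene. In lists of equal size guide 1 exceeded the control by 1227 bp and guide 2 by 2560 bp, and with peaks within 5000 bp merged guide 1 exceeded it by 3156 bp. Lists of equal size keep scores from 21 in the control, from 16 with guide 1 and from 10 with guide 2, here and for the genes below. The neighbour ZSCAN30, which overlaps ZNF397 and shares bases with it, had 1721, 3836 and 723 bp. N4BP2L2 followed with 3077, 874 and 626 bp. STARD13, a GTPase-activating protein, had 2316, 583 and 780 bp, and in lists of equal size guide 2 exceeded the control by 780 bp.

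The block from ZNF397 to ZNF396 (chr18:35241034-35377337, 136 kb), chosen after its values were seen, had 11, 10 and 4 peaks covering 15837, 9787 and 5819 bp. Its widest control peak, of 6460 bp, lay in the pseudogene ZNF271P and was the widest of all arm peaks. ZNF24 and ZNF396, zinc finger genes of the same block, had 0 bp in every list. The block held 3 of the 20 control peaks shared by all 3 lists. Without it the length left on 18q was 17.6% with guide 1 and 9.36% with guide 2, in place of 23.4% and 12.99%.

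The zinc finger list had 17 members in the arms, and the control, guide 1 and guide 2 lists marked 3, 2 and 2 of them. These are 17.6%, 11.8% and 11.8%, against 19.2%, 8.04% and 4.33% of all arm coding genes. Peaks covered 7627, 5982 and 3578 distinct bases of the members. This leaves 78.4% of the control with guide 1 and 46.9% with guide 2, against 23.7% and 8.89% over all arm coding genes. They lay in ZNF397 and ZSCAN30, except in ZNF407, which had 880, 0 and 0 bp. Added gene by gene, which counts the bases common to ZNF397 and ZSCAN30 for each, the lengths were 9348, 9322 and 4301 bp. The median member had 0 bp in the control, as did the median arm gene. The other lists below also had a control median of 0 bp.

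Of 37 neuronal genes (ion channels, receptors, adhesion and guidance proteins), the 3 lists marked 12, 5 and 5, over 13989, 5749 and 2434 bp. The marked shares were 32.4%, 13.5% and 13.5%, against 19.2%, 8.04% and 4.33% of all arm coding genes. KCNIP4, which binds potassium channels, had 5155, 0 and 636 bp. SORCS2, a sorting receptor, had 3016, 3333 and 0 bp, but with peaks within 5000 bp merged the guide 1 minus control difference was -1139 bp. GPC5, a cell-surface glypican, had 1286, 1504 and 0 bp. The list's genes are long, with a median of 192 kb against 47.6 kb for all arm genes, and long genes were marked more often. Among the 317 longest arm genes 46.1% had a control peak, and among the 319 shortest 1.25%.

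Of 21 fibroblast matrix and growth factor genes, the 3 lists marked 5, 2 and 3, over 10402, 3009 and 890 bp. The marked shares were 23.8%, 9.52% and 14.3%, against 19.2%, 8.04% and 4.33% of all arm coding genes. GPC6 led this list. FRAS1, a basement membrane protein, had 2571, 2222 and 296 bp, and the direction for guide 1 was the opposite under 3 of the alternatives: it exceeded the control by 1604 bp at scores of at least 16 and in lists of equal size, and by 1946 bp with merged peaks. For guide 2 FRAS1 exceeded the control by 296 bp at those scores and in those lists. COL25A1, a transmembrane collagen, had 1949, 0 and 0 bp. Of the platelet-derived growth factor system, chosen after its values were seen, the ligand PDGFC had 1475, 787 and 334 bp and the receptor PDGFRA 1137, 0 and 0 bp.

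Of 27 chromatin genes, the 3 lists marked 7, 1 and 0, over 5985, 254 and 0 bp. The marked shares were 25.9%, 3.70% and 0%, against 19.2%, 8.04% and 4.33% of all arm coding genes. CENPE, the kinesin of the kinetochore, had 1617, 254 and 0 bp. ZMYM2 had 1338, 0 and 0 bp. SMCHD1, a protein needed for silencing of the inactive X, had 969 bp in the control, and SETDB2, of the lysine methyltransferase family that acts on H3K9, had 508 bp, and neither had a guide peak. A guide peak was lacking in 137 of the 244 control-marked arm genes (56.1%). Of 18 cell cycle and p53 genes, the 3 lists marked 3, 2 and 1 (16.7%, 11.1% and 5.56%). RB1, the retinoblastoma tumour suppressor, had 4338, 1912 and 237 bp, and SMAD2, a transducer of TGF-beta signals, 2065, 0 and 0 bp. FOXO1, a forkhead transcription factor, had 417, 607 and 0 bp, and at scores of at least 16 its guide 1 coverage was 417 bp below the control.

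Several of the lists consist of short genes clustered on chromosomes 4 and 18. Median lengths were 2.16 kb for the CXC chemokines, 9.80 kb for the milk, saliva and enamel protein genes, 16.6 kb for the alcohol dehydrogenases, 24.9 kb for the serpins and 39.2 kb for the UDP-glucuronosyltransferases. Of the 319 arm genes up to 18.3 kb, 4 had a control peak (1.25%). Of the 316 genes of 18.4 to 47.6 kb, where the last 2 of these medians lie, 19 had one (6.01%). The 11 UDP-glucuronosyltransferases, the 7 alcohol dehydrogenases, the 14 milk, saliva and enamel protein genes and the 5 ribosomal protein genes, whose median is 5.01 kb, had no peak in any list. Of 13 CXC chemokine genes only CXCL13, which attracts B cells, was marked, with 669, 223 and 0 bp. Of 10 clade B serpins only SERPINB7 was marked, with 698 bp in the guide 1 list. Of 21 cadherin superfamily genes, control peaks marked 3 and guide peaks 0: FAT1 with 962 bp, DSG3 with 265 bp and CDH19 with 229 bp. Shares near 19.2%, 8.04% and 4.33%, the values over all arm genes, say nothing particular of a list.

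The highest-scoring arm peak of the control and guide 1 lists was at chr4:1397684-1398193 on 4p, between UVSSA, a repair gene 1.70 kb away, and the homeobox gene NKX1-1 at 4.74 kb. Its score was 113 in the control, and the overlapping guide peaks scored 81 and 24. A peak inside RB1 and its nested gene LPAR6 (chr13:48427288-48428213) had scores of 34, 40 and 21 in the 3 lists. At chr4:181239247-181241694, 206 kb from TENM3, the scores were 33, 60 and 58, with peaks of 2448, 2301 and 2483 bp. There the guide peaks were about as wide as the control peak. The widest peak of chromosome 13 lay in PCCA (chr13:100406816-100411588), with 4773, 3497 and 566 bp. The 20 peaks shared by all 3 lists included 2 on 4p, 5 on 4q, 6 on 13q, 1 on 18p and 6 on 18q.

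High control scores did not ensure a guide peak. The control peak with the highest score on chromosome 18 (57), in the mechanosensitive channel gene PIEZO2 (chr18:10946333-10946773), had none in either guide list. The same was true of chr13:104654548-104655081 (score 52) and chr13:41482642-41482906 (score 39), both outside annotated genes. In the opposite direction, both guides and not the control had peaks at chr18:59407625-59408827, 22.1 kb from CCBE1, in FRAS1 at chr4:78110575-78111255 and at chr13:75138337-75138869, 145 kb from TBC1D4. Their guide 1 scores were 16 each and their guide 2 scores 22, 29 and 15. The FRAS1 region had a control peak within 5000 bp, at chr4:78107340-78108137.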

How the data were processed

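Chromatin immunoprecipitation with sequencing of H3K9me3 and matched inputs was made by the authors in BJ cells fixed with formaldehyde, per the labels' protocols. For every H3K9me3 sample they deposited a peak list, which gives positions and a score, and which is named as that sample against the input of its own line. Peaks were therefore called per sample. The submitters' processing notes list MACS2 2.2.9.1, Bowtie2 2.4.2, deepTools 3.5.1 and GATK, and the builds hg38 and GRCh38.p13. The settings of the peak caller and the sequencing depth were not given in the sources used here. Each score is the authors' value on an unnamed scale. The names of single peaks hold guide names unlike those of the labels, and the labels decided which list belongs to which line. A peak call depends on depth and input, and neither was corrected for.

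Peaks were taken by their midpoint, and lists were compared by overlap of at least 1 bp, with 95% Wilson intervals. Gene and promoter positions and the printed sequences came from RefSeq for GRCh38.p14, whose chromosomes have the coordinates of GRCh38.p13. The promoter table used here holds no entry for chromosome 8, which was left out of promoter shares and of distances to gene starts. The other arms lie more than 1 Mb from the chromosome ends and more than 1 Mb from the longest gene-free interval of each chromosome. Software was matplotlib 3.10.9, scipy 1.17.1, pandas 2.3.3 and numpy 2.4.6 under Python 3.11.15. The overlap and coverage steps were tested on simulated data. With 1 library per group no test was run.

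The naming rule took the 10 genes of longest control coverage and up to 5 each of longest coverage shared by the lists, of the control alone and of both guides alone. It added up to 3 members of each of 12 gene lists, always SMCHD1 and SETDB2, and up to 3 regions per class by score or width. The neuronal list leaves out 1 gene that is not reported here. Any other name is marked in the text as picked with its value in view. The members, lists and comparisons were chosen with earlier results of these data known. Alternatives were a score limit, lists of equal size, a stricter distance from ends, other overlap rules, merging of peaks and leaving out a chromosome.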

Additional observations from a re-analysis of the deposited data

How the results depend on the processing

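Of 133 alternative values of the main results, 108 stayed within the yardstick, which is the 95% Wilson interval for shares and 1.5 times for ratios, widths and counts. The other 25 moved, and the causes were not tested beyond the construction of each alternative. A change of direction was possible only for the ratios of guide to control number and length, and 0 of these changed. Shares, widths and counts could only stay or move. Lists of equal size, whose lowest scores were 21, 16 and 10 for control, guide 1 and guide 2, gave guide 1 77.7% of the control number and 56.1% of its length. Guide 2 then had 57.1% and 37.4%. The share of control peaks overlapped was then 8.48% for guide 1 and 7.59% for guide 2, the share of guide peaks on a control peak 11.5% and 13.3%, and 87 genes had a control peak. With scores of at least 16, guide 1 overlapped 7.28% of control peaks, 25.9% of guide 1 peaks lay on a control peak and 36 genes had a guide 2 peak. Covering 50% of a peak gave overlaps of 4.11% and 1.31%, with 30.6% of guide 1 peaks on a control peak. A distance of 5000 bp gave 16.9% and 8.22%, with 55.6% and 55.5% of guide peaks at a control peak. Without chromosome 4, guide 1 overlapped 12.7% of control peaks, the share in coding genes was 36.8% in the control and 37.5% with guide 2, and 108, 48 and 20 genes were marked.

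Among 422 values for single genes, 315 stayed, 95 moved and 12 changed direction. Guide 1 minus control was 1227 bp (equal size) and 3156 bp (merged) for ZNF397, 294 bp for DYM (equal size), -1139 bp for SORCS2 (merged) and -417 bp for FOXO1 (score limit). For FRAS1 it was 1604 bp under both the score limit and equal size, and 1946 bp merged. Guide 2 minus control at equal size was 2560 bp for ZNF397, 780 bp for STARD13 and 296 bp for FRAS1, which had 296 bp under the score limit too. No paired analysis was possible because each group has 1 library, and no replicate could be left out. The lists hold no read counts, so depth limits every absolute difference in peak number.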

Other observations

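Peaks close to coding starts were few and differed between the lists. A peak midpoint lay within 5000 bp of a coding start for 25 control peaks (2.34%), 15 guide 1 peaks (5.21%, Wilson 3.18 to 8.41%) and 2 guide 2 peaks (1.56%), against 3.65% of points placed every 10 kb. These names were chosen after their values were seen. Near PI4K2B, a kinase of phosphatidylinositol, a control peak of 479 bp and a guide 2 peak of 428 bp lay 0.883 and 0.878 kb from the start. Near USP53 a control peak of 440 bp and a guide 1 peak of 234 bp lay 1.55 kb from the start. MAB21L1, CAB39L, ACAA2, TLR6, RASL11B, CXCL13 and ANXA10 also had a control and a guide 1 peak within that distance, and ZNF397 had peaks of all 3 lists there. None of the 110 microRNA hairpins of the arms lay under a peak, and 2 were within 5000 bp of a control peak.

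A few guide peaks of high score had no counterpart. DACH1, a transcription cofactor gene of 13q, held a guide 2 peak of 325 bp with a score of 57 (chr13:71553061-71553385), at percentile 91.3 of that list, and no peak of the control or guide 1 there. LAMA3, a laminin chain of epithelial basement membranes, held a guide 2 peak of 260 bp with a score of 40, and again neither other list had a peak there. Near SALL3, at 542 kb, a control peak of 418 bp and a guide 1 peak of 523 bp scored 47 and 52, and guide 2 had none.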
